A study of Homo sapiens with 6 samples.

Results

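Common fragile sites are stretches of the genome that form gaps and breaks on metaphase chromosomes when replication is slowed. Most lie inside very long genes that are replicated late, and deletions within these genes are frequent in cancer cell lines. The accessibility of 9 such genes, FHIT, WWOX, MACROD2, IMMP2L, LRP1B, AUTS2, NAALADL2, PDE4D and CDH13, was examined in A375 cells by the assay for transposase-accessible chromatin with sequencing (ATAC-seq), in which the Tn5 transposase cuts open chromatin and the reads in a peak count the cuts. A peak belonged to a gene when its centre lay in the gene body, or when it was intergenic and the start site of that gene was the nearest of any protein-coding gene. Of the 152800 peaks in the deposited table, 466 belonged to the 9 genes, and 461 of these were among the 150117 peaks with enough counts to be tested. The other 5, in IMMP2L, LRP1B, AUTS2 and CDH13, held between 0 and 12 counts in every library.

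A375 is a human melanoma line. The controls were A375 cells with an empty vector and the other group were A375 cells that overexpress HMGB2, a high mobility group protein that bends DNA (HMGB2OE), each with 3 libraries. The HMGB2OE cells are a stable line made by lentiviral transduction. Neither the number of clones in it nor the promoter of its HMGB2 construct is given in the sources used here. The libraries of a condition are technical replicates by the reporting summary, so p-values measure the spread between libraries and not between independently made lines. Between 26910189 and 45645294 reads per library fell in peaks. The question was whether neighbouring peaks of a fragile gene moved together, as they would if the number of copies of the DNA differed between the lines. An ATAC-seq count rises with the number of copies as well as with the openness of each copy, and these cannot be told apart here.

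The HMGB2 gene was checked first. Its peaks over coding exons rose by 1.16 and 1.67 on the log2 scale, with normalized counts of 32.0, 21.5 and 32.8 in empty vector cells and 55.3, 75.1 and 58.5 in HMGB2OE cells at the first of them. Normalized counts are counts scaled to a common library size. The HMGB2 peaks hold 156 and 288 coding bases. Reads from the HMGB2 construct, if it carries these bases, cannot be told apart from reads of the gene. Of 8 melanocytic marker genes, SOX10, MITF, PMEL and S100B had a promoter peak, whereas MLANA, TYR, DCT and TYRP1, which serve pigment production, had none. The authors called peaks with public melanocyte data as the control. A site open in melanocytes could thus be left out of the peaks, and a missing peak alone does not show a closed promoter. Of 6 markers of other cell types, CD3E and KRT5 had a promoter peak, and their summed normalized count lay between 304.0 and 424.5 in all libraries against 3102 to 3460 for the melanocytic markers. By its mean over the libraries, CD3E, at 247.9, was above PMEL, at 230.2, and below MITF, S100B and SOX10. KRT5, at 123.2, was below all of these. The summed levels overlapped between the conditions for both lists.

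The following sequences show 5 of the peaks that the results turn on. They are 300 bases of the plus strand of hg38, taken from inside each peak. The first pair are the peaks with the highest counts in the raised stretch of FHIT. Next come the nearest well-covered FHIT peak beyond that stretch and the largest rise in WWOX. The last is a called IMMP2L peak with a run of AT pairs, a feature for which fragile site DNA is known. Capitals mark the AP-1 word TGACTCA, or TGAGTCA, which is the same word on the other strand, except in the IMMP2L sequence, where they mark the AT run of 12 bases. That sequence also holds the word TGAGTCA, left there in lower case. The FHIT sequence from 60803811 has no AP-1 word.
FHIT intron 4, chr3:60742653-60742952: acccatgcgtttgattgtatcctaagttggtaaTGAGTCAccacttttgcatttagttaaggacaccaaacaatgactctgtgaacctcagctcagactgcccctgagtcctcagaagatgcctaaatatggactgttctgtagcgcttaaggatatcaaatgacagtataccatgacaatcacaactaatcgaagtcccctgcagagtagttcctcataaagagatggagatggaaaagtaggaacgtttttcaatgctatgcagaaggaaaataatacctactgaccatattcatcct
FHIT intron 4, chr3:60803811-60804110: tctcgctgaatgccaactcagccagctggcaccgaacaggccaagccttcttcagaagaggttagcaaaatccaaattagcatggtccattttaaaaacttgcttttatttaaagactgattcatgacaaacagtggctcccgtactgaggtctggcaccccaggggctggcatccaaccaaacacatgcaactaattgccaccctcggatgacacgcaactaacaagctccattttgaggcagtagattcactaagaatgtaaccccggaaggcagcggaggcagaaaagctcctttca
FHIT intron 3, chr3:61030495-61030794: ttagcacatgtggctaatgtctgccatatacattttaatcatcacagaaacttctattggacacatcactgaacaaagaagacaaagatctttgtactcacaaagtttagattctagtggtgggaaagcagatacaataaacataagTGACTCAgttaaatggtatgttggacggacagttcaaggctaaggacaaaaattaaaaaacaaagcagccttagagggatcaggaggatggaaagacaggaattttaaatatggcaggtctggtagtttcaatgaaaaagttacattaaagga
WWOX intron 8, chr16:78460450-78460749: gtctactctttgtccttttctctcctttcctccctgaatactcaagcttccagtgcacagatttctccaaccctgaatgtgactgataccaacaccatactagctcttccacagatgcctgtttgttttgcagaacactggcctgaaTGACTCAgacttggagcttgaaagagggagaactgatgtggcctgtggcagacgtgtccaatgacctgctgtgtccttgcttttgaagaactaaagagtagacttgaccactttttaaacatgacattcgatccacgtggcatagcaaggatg
IMMP2L intron 3, chr7:111357645-111357944: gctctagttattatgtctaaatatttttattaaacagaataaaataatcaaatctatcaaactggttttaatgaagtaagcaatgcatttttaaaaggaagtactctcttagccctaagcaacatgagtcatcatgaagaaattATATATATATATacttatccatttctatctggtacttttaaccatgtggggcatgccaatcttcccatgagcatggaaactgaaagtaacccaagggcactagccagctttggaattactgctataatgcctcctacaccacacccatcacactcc
The AP-1 word was found in 36.0% of the 461 peaks of fragile genes and in 28.0% of all tested peaks. The peaks of fragile genes were more often distal, since 11.7% of them lay at promoters against 26.4% of all tested peaks. Among distal peaks the word was found in 39.1% of those of fragile genes and in 31.7% of all. In the peaks of other genes of at least 500 kb, of which 11.4% lay at promoters, its share was 32.5%. The word was found in 3 of the 15 peaks of the raised stretch of FHIT. Of the peaks of fragile genes called higher, 6 of 25 (24.0%) held it, and of those called lower, 3 of 7 (42.9%). Runs of at least 6 AT pairs were rare, at 3 of the 461 peaks (0.651%) and 0.314% of all tested peaks. The median GC content was 41.2% in the fragile genes, 46.2% in all tested peaks and 42.4% in other genes of at least 500 kb.

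Single peaks were compared with edgeR's quasi-likelihood test, and a call took an adjusted p under 0.05 together with a fold of 1.5 or more. Of the 461 peaks, 25 were higher in HMGB2OE cells (5.42%) and 7 were lower (1.52%), against 1.87% and 1.44% of all tested peaks. In the peaks of other genes of at least 500 kb these shares were 2.94% and 2.17%. Among distal peaks they were 5.90% and 1.47% in the fragile genes and 2.18% and 1.68% in all. FHIT held 8 of the 25 rises in its 42 peaks. The other 8 genes had 17 rises and 7 falls in 419 peaks, or 4.06% and 1.67%. The median log2 fold change over the 461 peaks was 0.01, and 233 of them were above 0. The libraries of the 2 conditions did not overlap in 138 peaks (29.9%) against 25.1% of all tested peaks. The count of rises fell to 14 without HMGB2OE replicate 3 and to 16 without empty vector replicate 2, and that of falls to 3 without HMGB2OE replicate 1 and to 4 without empty vector replicate 2.

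To see whether neighbours moved together, the tested peaks of every protein-coding gene were cut in genome order into runs of 10, and the counts of a run were summed and tested. A run was called at an adjusted p under 0.05 with no limit on the fold. The 9 genes had 46 runs, of which 7 were higher and 4 lower in HMGB2OE cells, against 5.79% and 5.56% of the 14502 runs of all genes. The higher runs fell to 3 without empty vector replicate 1 or HMGB2OE replicates 1 or 2 and to 4 without empty vector replicate 2. The lower runs fell to 0 without empty vector replicate 2 and to 2 without HMGB2OE replicates 1 or 2. In 9 of these 11 runs the log2 fold change was under 0.26 in size. Only FHIT run 3 and WWOX run 2 passed a limit of 0.32 on the log2 scale. These were also the only runs among the 38 member runs of exactly 10 peaks in which every peak was above 0. Over all genes, 1.58% of such runs had every peak above 0.

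**Figure D1:**
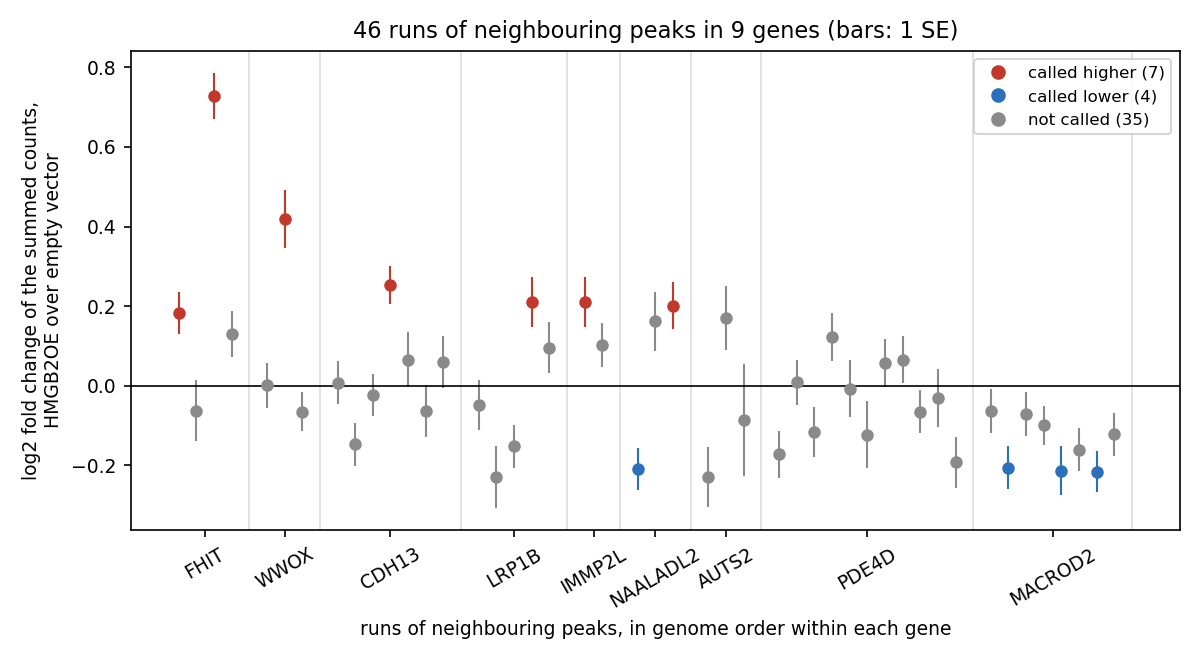
Log2 fold change of the summed counts of each run of neighbouring peaks, HMGB2OE over empty vector, for the 46 runs of the 9 genes in genome order (points; bars give 1 SE from edgeR; red, called higher; blue, called lower; grey, not called). FHIT run 3 stands at 0.73 and WWOX run 2 at 0.42, and all the other runs lie between -0.23 and 0.25.

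FHIT encodes a diadenosine triphosphate hydrolase and is the gene of the fragile site FRA3B. It lies on the minus strand at chr3:59747277-61251459, spans 1504 kb and has 10 exons in its canonical transcript. The summed normalized counts of FHIT run 3, which lies wholly in intron 4 at chr3:60668421-60803658, were 818.6, 871.6 and 898.7 in empty vector cells and 1362, 1483 and 1451 in HMGB2OE cells. Every HMGB2OE library was above every empty vector library. The log2 fold change was 0.73 (SE 0.058; edgeR's quasi-likelihood test, adjusted p = 6.16e-06), and all 10 peaks were above 0, between 0.43 and 1.15. By log2 fold change it ranked at 8 of the 14502 runs, and by p-value at 4.

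The neighbouring runs of FHIT were not called. Run 2, the neighbour toward the end of the gene, had 731.0, 696.9 and 706.8 normalized counts in empty vector cells and 683.4, 689.8 and 669.8 in HMGB2OE cells, a log2 fold change of -0.06 (SE 0.076; edgeR, adjusted p = 0.633). FHIT run 4, which holds 5 more peaks of the raised stretch and the start of the gene, differed by 0.13 (SE 0.057; edgeR, adjusted p = 0.151). FHIT run 1, at the far end, was higher by 0.18 (SE 0.053; edgeR, adjusted p = 0.0364). That call was lost when any 1 library other than empty vector replicate 3 was left out, with adjusted p between 0.0698 and 0.0999.

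The edges of the raised stretch were then read peak by peak, after these values had been seen, so that no test was made of it. From chr3:60668421 to 60936127, over 267.7 kb, 15 consecutive tested peaks each had a log2 fold change of at least 0.3. They lay on both sides of exon 4 (chr3:60821919-60822011), in introns 4 and 3. Their summed normalized counts were 1162, 1158 and 1209 in empty vector cells and 1880, 2024 and 1984 in HMGB2OE cells, or 1176 ± 28.3 and 1963 ± 74.2 (SD, n = 3). The lowest HMGB2OE library was far above the highest empty vector library. In 12 of the 15 peaks the libraries did not overlap, against 25.1% of all tested peaks. Since the peaks were picked for values of at least 0.3, this separation follows in part from the choice.

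Within the stretch, where values of at least 0.3 were the condition, the log2 fold changes were of like size. They ran from 0.43 to 1.35 with a median of 0.74, and their SD of 0.25 was close to the median SE of a single peak, 0.22. For 14 of the 15 peaks the value lay within 2 SE of their weighted mean of 0.74. Just outside the stretch, the next peaks stood at -0.03 and -0.05, at distances of 58.7 kb and 29.8 kb. Both these neighbours were weak, with normalized counts below 50 in every library.

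The 3 FHIT peaks with the largest called rises all lay in this stretch, in intron 4. At chr3:60742653-60743154, the first sequence shown, the normalized counts were 175.1, 159.2 and 207.1 in empty vector cells and 340.9, 333.6 and 362.5 in HMGB2OE cells (log2 fold change 0.94, SE 0.12; edgeR, adjusted p = 2.29e-05). At chr3:60743619-60744120 they were 36.1, 38.7 and 49.2 against 78.2, 98.4 and 99.1 (1.15, SE 0.22; edgeR, adjusted p = 0.0014). At chr3:60809758-60810259 they were 29.2, 10.3 and 17.6 against 51.0, 33.4 and 56.3 (1.35, SE 0.36; edgeR, adjusted p = 0.0196).

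The rest of FHIT differed less between the conditions. The 20 peaks toward the end of the gene had 1876, 1910 and 1933 summed normalized counts in empty vector cells and 2015, 2029 and 2076 in HMGB2OE cells, a log2 ratio of 0.10. These libraries did not overlap, and 12 of the 20 peaks were above 0. The 7 peaks toward and before the start had 1805, 2070 and 2137 against 1993, 1973 and 2058. Their log2 ratio was 0.00, and 3 of them were above 0. Of these 27 peaks, 1 was called, a rise of 0.79 in intron 8 (chr3:59862575-59863076). The sequence shown from intron 3 belongs to a peak past the stretch that went the other way, with 350.2, 379.4 and 356.9 normalized counts in empty vector cells and 338.3, 311.9 and 320.8 in HMGB2OE cells (log2 fold change -0.16, SE 0.11; not called).

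**Figure D2:**
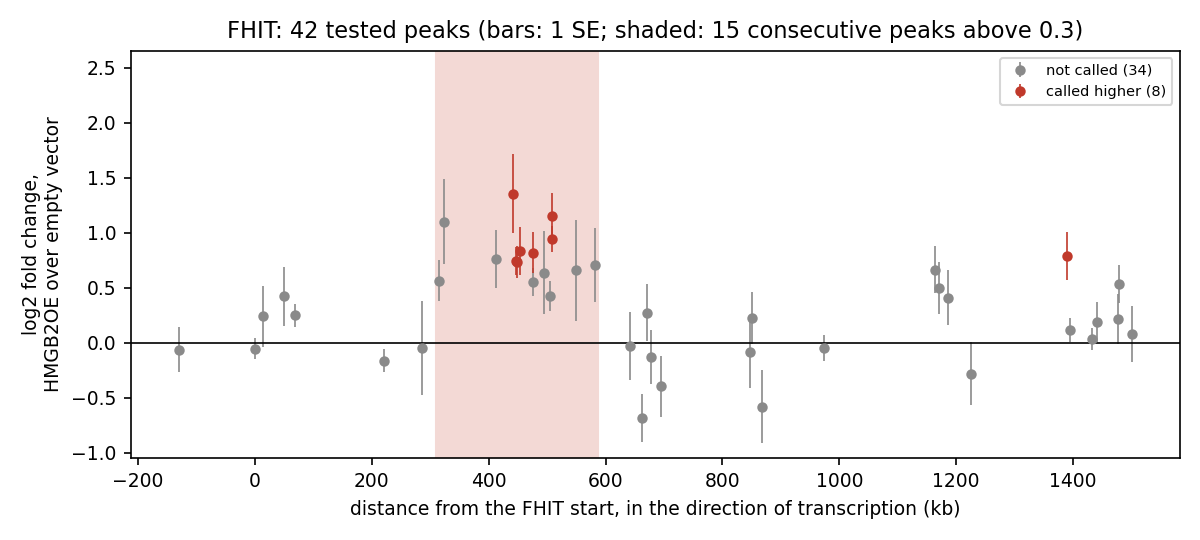
Log2 fold change of each of the 42 tested FHIT peaks, HMGB2OE over empty vector, against the distance from the FHIT start in kb along the direction of transcription (points; bars give 1 SE; red, called higher; grey, not called). The shaded stretch holds the 15 consecutive peaks between 0.43 and 1.35, with 7 of the 8 called peaks. Of the 20 peaks toward the gene end, 12 are above 0, and of the 7 toward its start, 3 are.

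Changes in copy number give fixed ratios, and these were set beside the raised stretch as arithmetic. A step from 1 to 2 copies in all cells gives a log2 ratio of 1, from 2 to 3 copies 0.585 and from 3 to 4 copies 0.415. FHIT run 3, at 0.73, lay between the steps from 1 to 2 and from 2 to 3 copies. In units of its SE, the run minus the step was -4.66 for the step from 1 to 2 copies. It was 2.46 for the step from 2 to 3 copies and 5.38 for that from 3 to 4. The single peaks have larger SEs and were picked for values of at least 0.3. Of the 15 peaks of the stretch, 11 lay within 2 SE of the step from 1 to 2 copies. For the steps from 2 to 3 and from 3 to 4 copies there were 12 and 9 such peaks. Steps of more than 1 copy were not set beside it, and a copy change was not tested. A step carried by some of the cells would give values in between. The number of copies of FHIT in either line was not measured here.

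Chains of consecutive peaks were sought in the same way on all chromosomes, as a description made after the FHIT values were seen. There were 245 chains of at least 5 peaks with log2 fold changes of at least 0.3 in size and 1 sign, and 7 of at least 15 peaks. The FHIT chain was 1 of the 7, and it was the only one of them that was higher in HMGB2OE cells. Besides FHIT, 1 other chain of at least 5 peaks held a peak of a fragile gene. It comprised 6 peaks upstream of AUTS2, shared with SPDYE21, over 529.9 kb (chr7:68176857-68706735), with 1033, 1166 and 1161 summed normalized counts in empty vector cells and 844.1, 807.4 and 868.0 in HMGB2OE cells. The median log2 fold change of its peaks was -0.42, and none of them was called.

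WWOX, an oxidoreductase with WW domains, is the gene of the fragile site FRA16D. It spans 1113 kb at chr16:78099400-79212667 on the plus strand. WWOX run 2, in introns 5 and 8 at chr16:78317872-78770841, had 790.8, 739.9 and 717.3 summed normalized counts in empty vector cells and 940.1, 1014 and 1050 in HMGB2OE cells. The libraries did not overlap, and the log2 fold change was 0.42 (SE 0.072; edgeR, adjusted p = 0.00227). The 10 peaks were all above 0 but varied more among themselves than those of FHIT run 3, since they ran from 0.05 to 0.99 with an SD of 0.35 against a median SE of 0.20. Peaks whose libraries overlapped lay between raised ones, for example 161.2, 147.1 and 122.9 normalized counts in empty vector cells and 148.8, 156.8 and 138.5 in HMGB2OE cells at chr16:78528460-78528961.

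The runs on either side of it in WWOX differed by 0.00 (run 1, SE 0.056) and -0.06 (run 3, SE 0.049), and neither was called. At the peak of the WWOX sequence shown, the normalized counts were 48.6, 43.9 and 51.5 in empty vector cells and 99.5, 97.6 and 86.7 in HMGB2OE cells (log2 fold change 0.99, SE 0.20; edgeR, adjusted p = 0.00273). At chr16:78543025-78543526 they were 52.8, 37.0 and 26.9 against 74.8, 69.2 and 79.9 (0.95, SE 0.24; edgeR, adjusted p = 0.0155). Toward the end of intron 8, WWOX held falls as well. At chr16:79182563-79183064 the counts were 148.7, 129.1 and 101.8 in empty vector cells and 81.6, 87.6 and 72.1 in HMGB2OE cells (-0.64, SE 0.17; edgeR, adjusted p = 0.023), and another peak of intron 8 fell by 0.61.

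**Figure D3:**
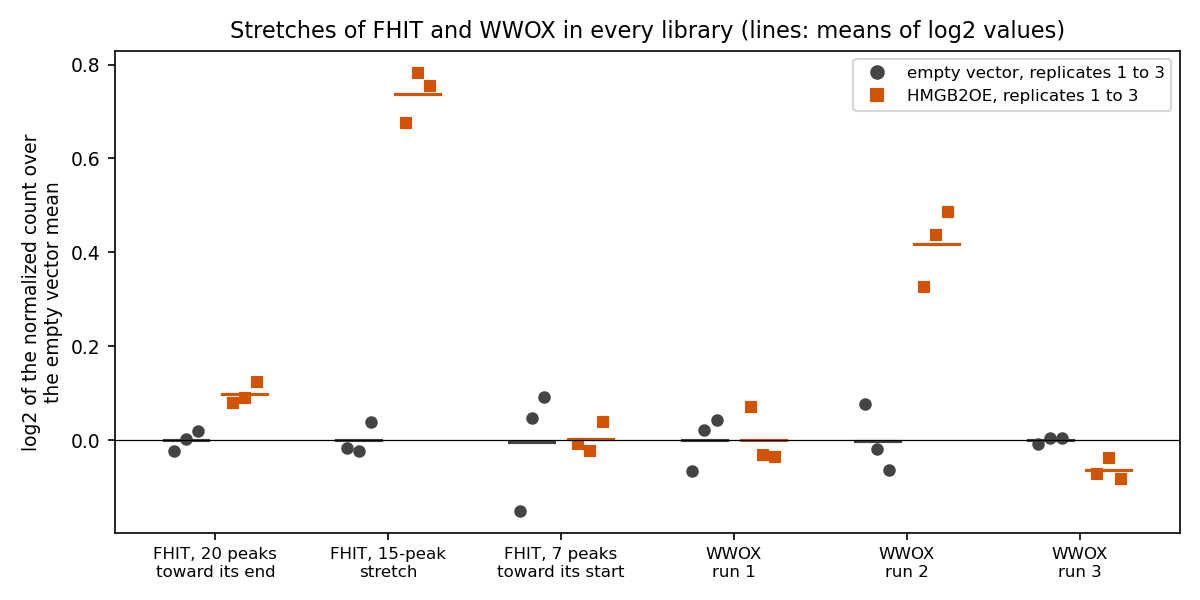
Summed normalized counts of stretches of FHIT and WWOX in every library, as log2 of the ratio to the empty vector mean (circles, empty vector; squares, HMGB2OE; lines, means of the log2 values, n = 3). The FHIT stretch of 15 peaks and WWOX run 2 separate the conditions by more than the spread between libraries. The stretches beside them differ less, and the FHIT peaks toward the gene end stand at a log2 ratio of 0.10 without overlap.

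MACROD2, which encodes an enzyme that removes ADP-ribose from proteins, went the other way. It is the longest of the 9 genes (2058 kb, chr20:13995369-16053197), and all 8 of its runs were below 0, between -0.06 and -0.22. Run 7, in intron 8, had 1368, 1418 and 1407 summed normalized counts in empty vector cells and 1254, 1159 and 1200 in HMGB2OE cells (log2 fold change -0.22, SE 0.052; edgeR, adjusted p = 0.0162). Run 5, in introns 5 and 6, differed by -0.21 (SE 0.061; edgeR, adjusted p = 0.0354) and run 2, in intron 3, by -0.21 (SE 0.054; edgeR, adjusted p = 0.0257). The falls were small, and rises lay among them, such as a peak of intron 8 inside run 7 with 55.6, 55.1 and 55.0 normalized counts in empty vector cells and 95.2, 95.1 and 84.4 in HMGB2OE cells.

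These MACROD2 calls depended on single libraries. Run 7 was lost without empty vector replicate 2 or HMGB2OE replicate 2 (adjusted p = 0.0677 and 0.0683). Run 2 was lost without empty vector replicate 2 or HMGB2OE replicates 2 or 3 (adjusted p up to 0.0899), and run 5 without empty vector replicates 1 or 2 or HMGB2OE replicates 1 or 3 (up to 0.139). The largest changes of the 5 called MACROD2 peaks were a fall at chr20:14434499-14435000 in intron 3, with 93.1, 100.7 and 122.9 normalized counts in empty vector cells and 61.2, 44.2 and 46.2 in HMGB2OE cells (-1.06, SE 0.20; edgeR, adjusted p = 0.00153), and a fall at chr20:14991912-14992413 in intron 5 (-1.02, SE 0.21; edgeR, adjusted p = 0.00266). Of the called peaks, a rise of 0.82 in intron 9 came next (chr20:15867822-15868323).

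**Figure D4:**
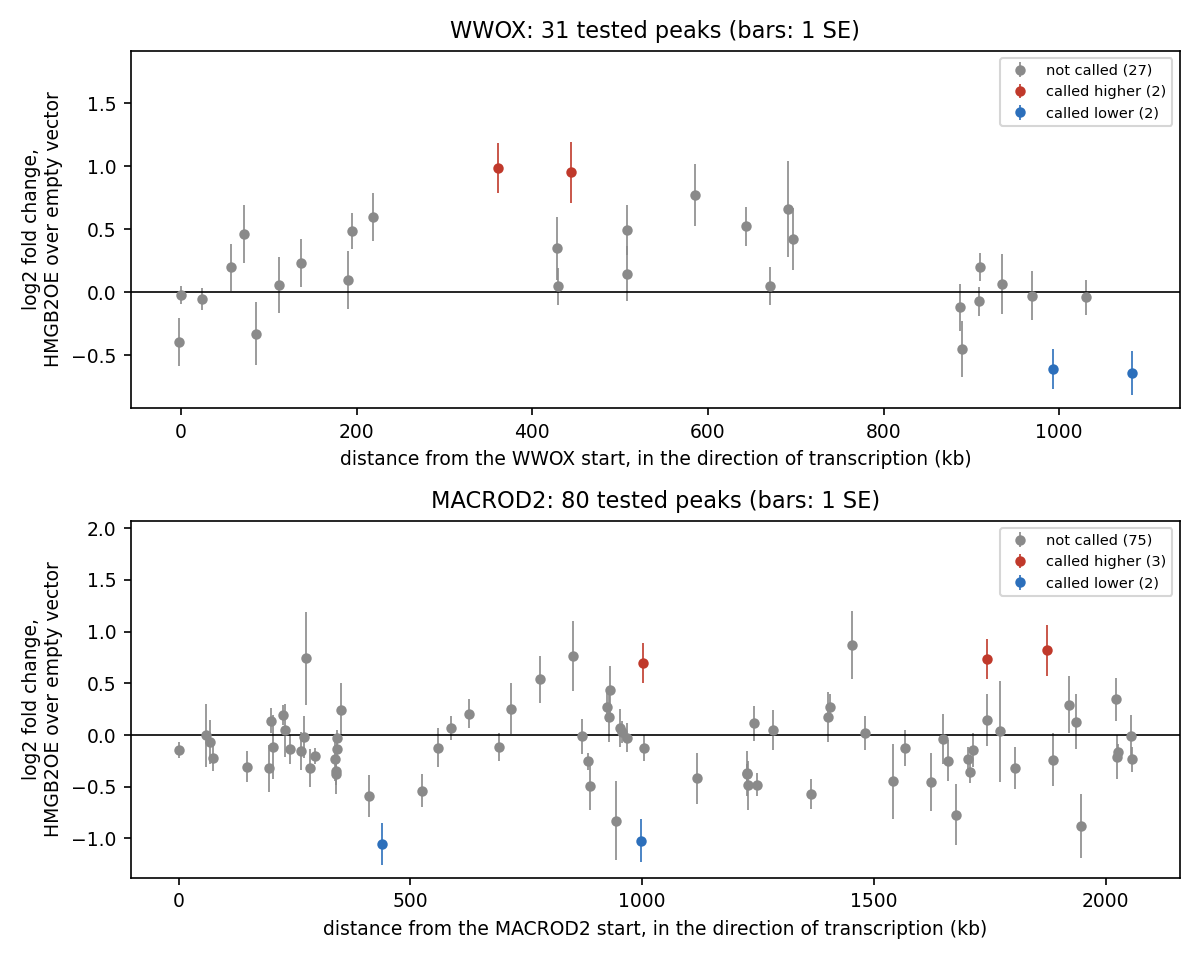
Log2 fold change of each tested peak of WWOX (upper) and MACROD2 (lower), HMGB2OE over empty vector, against the distance from the gene start in kb along the direction of transcription (points; bars give 1 SE; red, called higher; blue, called lower; grey, not called). Raised WWOX peaks lie between peaks near 0 and give way to 2 called falls near the end of the gene, and the 80 MACROD2 peaks mix rises and falls with 29 of them above 0.

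CDH13 encodes T-cadherin, a cadherin anchored in the membrane by a lipid. Its run 4, in introns 1 and 2, had 1583, 1581 and 1532 summed normalized counts in empty vector cells and 1894, 1875 and 1825 in HMGB2OE cells (log2 fold change 0.25, SE 0.048; edgeR, adjusted p = 0.00442). The libraries did not overlap, and the call held with any 1 library left out, at adjusted p of at most 0.0282. The other 6 runs of CDH13 lay between -0.15 and 0.07 and were not called. Its called peaks were rises at chr16:82888303-82888804 in intron 2, with 58.4, 77.4 and 71.4 normalized counts in empty vector cells and 113.9, 133.5 and 155.4 in HMGB2OE cells (0.93, SE 0.18; edgeR, adjusted p = 0.00143), and at chr16:82741137-82741638 in intron 1 (0.66, SE 0.18; edgeR, adjusted p = 0.0199).

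LRP1B, a very large receptor of the LDL receptor family with 91 exons, had 1 called run of 5. Run 4, in introns 1 and 2, had 970.1, 985.1 and 1096 summed normalized counts in empty vector cells and 1164, 1226 and 1138 in HMGB2OE cells (log2 fold change 0.21, SE 0.062; edgeR, adjusted p = 0.0395). It was lost without empty vector replicates 1 or 2 or HMGB2OE replicates 1 or 2 (adjusted p between 0.0964 and 0.149), and the median over its peaks was 0.07. The next runs toward the end of the gene, 3 and 2, stood at -0.15 and -0.23 and were not called. Its called peaks were a fall at chr2:140600182-140600683 in intron 42 (-0.77, SE 0.23; edgeR, adjusted p = 0.0369) and a rise at chr2:141766885-141767386 in intron 2 (0.67, SE 0.17; edgeR, adjusted p = 0.016).

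IMMP2L, a subunit of the mitochondrial inner membrane peptidase, had 3 called rises among 22 peaks and no call in the other direction. Run 1, in introns 3 to 5, had 1412, 1496 and 1433 summed normalized counts in empty vector cells and 1783, 1736 and 1501 in HMGB2OE cells (log2 fold change 0.21, SE 0.063; edgeR, adjusted p = 0.0423). HMGB2OE replicate 3 was close to the empty vector libraries. The call was lost when any 1 library other than this was left out (adjusted p between 0.0675 and 0.184). At chr7:111164294-111164795 in intron 3 the normalized counts were 48.6, 51.6 and 53.8 in empty vector cells and 108.0, 97.6 and 85.6 in HMGB2OE cells (0.92, SE 0.20; edgeR, adjusted p = 0.00426). The other called peaks were at chr7:111551706-111552207 in intron 1 (0.95, SE 0.28; edgeR, adjusted p = 0.0355) and the peak of the last sequence shown, with 116.7, 96.4 and 76.1 against 156.4, 143.5 and 131.7 (0.59, SE 0.16; edgeR, adjusted p = 0.0273).

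NAALADL2, which resembles a glutamate carboxypeptidase, moved in both directions. Run 1, before and around the start, had 1694, 1858 and 1714 summed normalized counts in empty vector cells and 1494, 1542 and 1531 in HMGB2OE cells (log2 fold change -0.21, SE 0.053; edgeR, adjusted p = 0.0202). The peaks with most counts carried this fall, since 7 of its 10 peaks were above 0 and their median was 0.05. Run 3, toward the end of the gene, was higher by 0.20 (SE 0.060; edgeR, adjusted p = 0.0408). Run 1 was lost without empty vector replicate 2 or HMGB2OE replicate 1 (adjusted p = 0.0997 and 0.0893), and run 3 without empty vector replicates 1 or 3 or HMGB2OE replicates 1 or 2 (up to 0.13) and with a loess trend on mean count (0.0571). The 3 called peaks of NAALADL2 were rises. At chr3:174949472-174949973 in intron 1 the normalized counts were 25.02, 19.8 and 11.7 in empty vector cells and 36.6, 38.4 and 60.8 in HMGB2OE cells (edgeR, adjusted p = 0.0255). The rises at chr3:174330285-174330786, before the start, and at chr3:175672134-175672635, in intron 11, were 1.02 and 0.88.

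In AUTS2, a nuclear protein of neural development, and PDE4D, a cyclic AMP phosphodiesterase, no run was called. AUTS2 run 1, all of it before the start, had 2008, 1940 and 2221 summed normalized counts in empty vector cells and 1719, 1566 and 1991 in HMGB2OE cells, a log2 fold change of -0.23 (SE 0.076; edgeR, adjusted p = 0.064). Called AUTS2 peaks were a rise at chr7:70575268-70575769 in intron 5, with 36.1, 28.4 and 26.9 normalized counts against 75.7, 44.2 and 87.8 (1.18, SE 0.28; edgeR, adjusted p = 0.00832), and a fall before the start at chr7:68799419-68799920 (-0.60, SE 0.16; edgeR, adjusted p = 0.0191). The 11 runs of PDE4D, the gene with most peaks (107), lay between -0.19 and 0.12. Its called peaks were rises of 0.65 (chr5:59152598-59153099, intron 5) and 0.62 (chr5:59275820-59276321, intron 1) and a fall of -0.61 (chr5:60492798-60493299).

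Each library in turn was left out for the 24 called peaks chosen by size, up to 3 per gene, and 9 kept an adjusted p under 0.05 throughout: those of FHIT at 60742653 and 60743619, of WWOX at 78460312, of MACROD2 at 14434499 and 14991912, of IMMP2L at 111164294, of CDH13 at 82888303, of NAALADL2 at 174330285 and of PDE4D at 60492798. The last of these stood at -0.57 without empty vector replicate 2 or HMGB2OE replicate 1, and so fell short of the fold limit, 0.585 on the log2 scale. The other 15 peaks each had an adjusted p above 0.05 without at least 1 library. For PDE4D at 59275820 this held whichever library was left out (edgeR, adjusted p between 0.054 and 0.147). The highest adjusted p by edgeR's quasi-likelihood test was reached without empty vector replicate 1 for WWOX at 79182563 (0.11) and PDE4D at 59152598 (0.0535), without empty vector replicate 2 for FHIT at 60809758 (0.126) and without empty vector replicate 3 for WWOX at 78543025 (0.078). Without HMGB2OE replicate 1 it was 0.247 for MACROD2 at 15867822, 0.134 for IMMP2L at 111357605 and 0.0576 for NAALADL2 at 175672134. Without HMGB2OE replicate 2 it was 0.163 for LRP1B at 140600182, 0.119 for AUTS2 at 68799419 and 0.118 for CDH13 at 82741137. Without HMGB2OE replicate 3 it was 0.163 for NAALADL2 at 174949472, 0.16 for IMMP2L at 111551706, 0.147 for PDE4D at 59275820, 0.0747 for LRP1B at 141766885 and 0.0682 for AUTS2 at 70575268.

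Over a whole gene the changes were small. The counts of all tested peaks of a gene were summed and tested over 9206 genes. At an adjusted p under 0.05, 5.58% of these sums were higher and 6.67% lower. FHIT had 4843, 5138 and 5279 summed normalized counts in empty vector cells and 5888, 6026 and 6117 in HMGB2OE cells (log2 fold change 0.24, SE 0.049; edgeR, adjusted p = 0.00163). Without the 15-peak stretch the log2 ratio of its sums was 0.05. IMMP2L had 3062, 3011 and 3025 against 3376, 3492 and 3252 (0.15, SE 0.050; edgeR, adjusted p = 0.0391), and its call was lost without empty vector replicates 2 or 3 or HMGB2OE replicates 1 or 2 (adjusted p between 0.0699 and 0.185), and in the gene body alone (0.092).

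The other gene sums were not called. WWOX had 5750, 5931 and 5967 against 6192, 6027 and 6012 (0.05, SE 0.048). MACROD2 had 16660, 17770 and 17100 against 15870, 15540 and 15360 (-0.14, SE 0.053; edgeR, adjusted p = 0.0822), and it was called without empty vector replicate 1 (adjusted p = 0.0157) and under 3 of the other alternatives. These were 2 genes whose libraries did not overlap although the sum was not called. AUTS2 had 2976, 2847 and 3251 against 2725, 2549 and 3134 (-0.11, SE 0.062; edgeR, adjusted p = 0.25). Its direction turned in the gene body alone, at 0.11 (edgeR, adjusted p = 0.313), while with the peaks before the start included the sum was called lower without HMGB2OE replicate 3 (-0.20; edgeR, adjusted p = 0.048).

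For the remaining genes the conditions overlapped. PDE4D had 19960, 20940 and 19670 against 19730, 20200 and 18870 (-0.04, SE 0.055). CDH13 had 18810, 20190 and 19830 against 20060, 19600 and 18610 (-0.01, SE 0.055). LRP1B had 7649, 8320 and 7982 against 8158, 8210 and 7360 (-0.01, SE 0.054), and NAALADL2 had 3705, 4125 and 3735 against 3874, 4023 and 3856 (0.02, SE 0.051). With 3 libraries against 3, an exact two-sided permutation test cannot go below 0.1. It gave 0.1 for FHIT, WWOX, MACROD2 and IMMP2L, and between 0.4 and 0.8 for the other 5 genes.

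**Figure D5:**
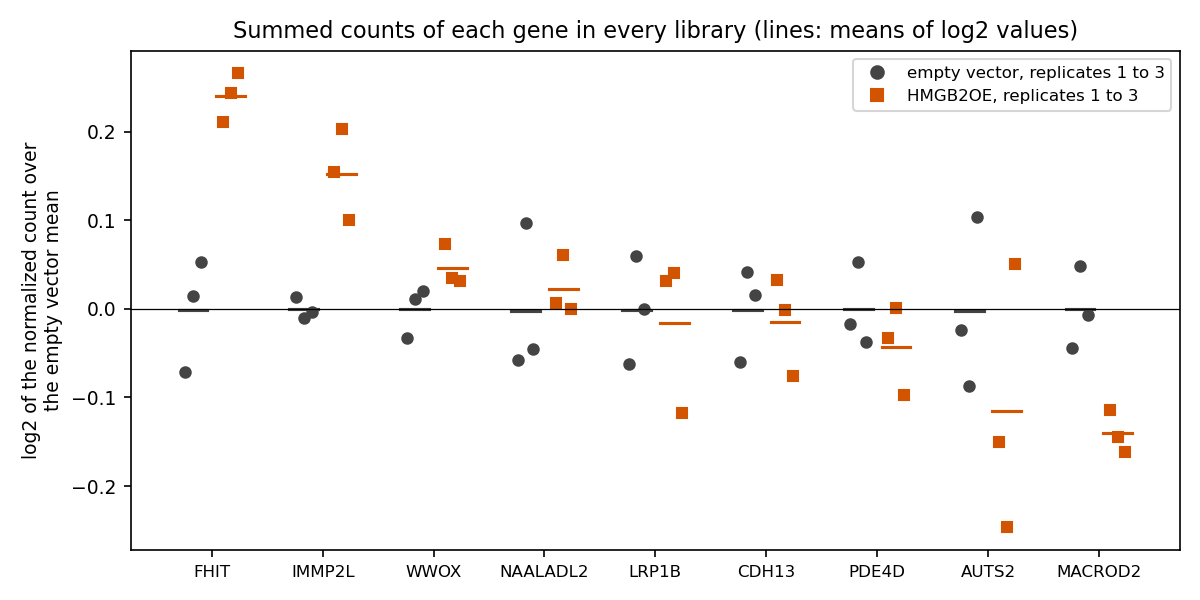
Summed normalized counts of each gene in every library, as log2 of the ratio to the empty vector mean (circles, empty vector; squares, HMGB2OE; lines, means of the log2 values, n = 3). FHIT and IMMP2L lie above the empty vector libraries and MACROD2 below them. WWOX also lies above the empty vector libraries, by little, at a log2 fold change of 0.05. The libraries of LRP1B, CDH13, PDE4D, AUTS2 and NAALADL2 overlap.

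The regions around FHIT, WWOX and MACROD2 were compared in the same way, with no test. In the 1 Mb beside FHIT, the log2 ratio of the summed counts was 0.01 below the gene in coordinate (44 peaks) and 0.09 above it (33 peaks). Beside WWOX it was 0.14 below (52 peaks) and 0.00 above (53 peaks). Beside MACROD2 it was 0.03 below (47 peaks) and -0.13 above (40 peaks), where the 3 empty vector libraries had 7736, 8208 and 7667 summed normalized counts and the HMGB2OE libraries 7389, 7200 and 6960. The libraries did not overlap in the regions above MACROD2, below WWOX and above FHIT. Below WWOX the counts were 8826, 8970 and 9429 in empty vector cells and 10080, 9953 and 10020 in HMGB2OE cells. Above FHIT they were 6970, 7369 and 7644 against 7678, 7840 and 7909. Over all of chromosomes 3, 16 and 20 the ratios were 0.00, -0.02 and -0.05.

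The strongest promoter peak of each gene was called in none of the 9. The strongest promoter peak of FHIT, over exon 1, had 917.3, 1173 and 1273 normalized counts in empty vector cells and 1063, 1074 and 1111 in HMGB2OE cells (log2 fold change -0.05, SE 0.093). That of WWOX had 2106, 2280 and 2409 against 2332, 2140 and 2226 (-0.02, SE 0.073). Those of MACROD2, IMMP2L, PDE4D, LRP1B and AUTS2 differed by -0.14, -0.03, -0.22, 0.06 and -0.17, with adjusted p between 0.191 and 0.917 by edgeR's quasi-likelihood test. The PDE4D peak lay in intron 5, 1483 kb past the gene start, at the start of another transcript of the gene. The CDH13 peak was lower, with 496.2, 592.8 and 567.5 normalized counts in empty vector cells and 415.7, 452.9 and 430.0 in HMGB2OE cells (-0.36, SE 0.099; edgeR, adjusted p = 0.0265). The NAALADL2 peak was lower too, with 793.6, 819.1 and 798.1 against 642.6, 624.7 and 637.2 (-0.34, SE 0.085; edgeR, adjusted p = 0.013). The CDH13 peak lay in intron 1, 2.87 kb past the gene start, and the NAALADL2 peak lay 2.71 kb past its gene start. Both peaks fell short of a fold change of 1.5 and so were not among the called peaks. The adjusted p of the first rose above 0.05, to at most 0.139, when any 1 library but empty vector replicate 1 was left out, and that of the second without empty vector replicate 2 or HMGB2OE replicates 1 or 2, to at most 0.0625.

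Genes whose sums followed the libraries most like FHIT were sought among 4726 genes with at least 10 tested peaks, by the root mean square difference of the log2 sums centred over the 6 libraries. The closest were POU1F1, a pituitary transcription factor, at 0.020, BMPER, a secreted regulator of BMP signalling, at 0.022, and CREB5, a bZIP transcription factor, at 0.022. Their log2 fold changes were 0.23, 0.25 and 0.26, near the 0.24 of FHIT. This nearness follows from the choice of genes by their likeness to FHIT.

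Large genes of other common fragile sites gave no call for the whole gene. Of 15 such genes, among them DMD, DLG2 and CTNNA3, none was called at an adjusted p under 0.05 by edgeR's quasi-likelihood test. At an unadjusted p under 0.05 there were 3, and DESeq2 called 1, which was lower. Their median log2 fold change was -0.04, against -0.02 over all 9206 genes. Of their 66 runs 4 were higher and 3 lower, between -0.33 and 0.35. Of 21 genes that maintain fragile sites under replication stress, only 6 had at least 5 tested peaks, and WRN, a RecQ helicase, was the one whose sum was called. It had 886.7, 984.3 and 978.3 normalized counts in empty vector cells and 1137, 1066 and 1107 in HMGB2OE cells (0.21, SE 0.065; edgeR, adjusted p = 0.0289). Of 309 other genes of at least 500 kb, 29 were higher and 18 lower, and of their 1097 runs 95 were higher and 68 lower, with log2 fold changes between -0.54 and 1.05, a range that includes the FHIT value.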

How the data were processed

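The 6 ATAC-seq libraries of A375 cells were grouped by their labels, 3 per condition. The authors used Trim Galore 0.6.7 and cutadapt 4.0 for trimming, Bowtie 2 for alignment to hg38 and Picard for duplicates. Peaks were called by MACS2 with public melanocyte data as the control. Those outside blacklisted regions were merged to 1 atlas, and the raw counts of featureCounts per peak and library were deposited. The treatment of reads with several alignments, which matters for repeats, and any shift for Tn5 are not given in the sources used here.

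Differences were tested with edgeR 4.0.16 under R 4.3.3 (TMM, filterByExpr, quasi-likelihood F test, no covariate, Benjamini-Hochberg over all 150117 tested peaks). SEs were obtained from F, whose square root is the ratio of the absolute log2 fold change to its SE. Sums over runs and genes, of at least 5 tested peaks, were fitted with the library sizes and TMM factors of the peaks, over all runs or genes. Peaks, which are 502 bases wide in the table, were assigned with GENCODE release 44 on hg38, and their coordinates are printed as deposited. The scripts were tested on simulated data. Total counts of 26910189 to 45645294 per library leave a median SE of 0.06 (log2) for a run of peaks.

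The named items are all 9 gene sums, the promoter peak (within 3 kb of a start) with the highest mean count of each gene, the called runs and called peaks up to 3 per gene by size, and the 3 genes most like the member with the largest change. The members and lists were chosen with earlier results of these data known. A further gene of the list of other fragile sites is not reported here. Features were described by their position in the canonical transcript. Peaks that also lay in a gene nested in or overlapping a member (FLRT3 and SEL1L2 in MACROD2, HSBP1 in CDH13) were counted with the member. Alternatives were other scalings, filters, fold limits, run lengths and peak assignments, DESeq2 1.42.0, the replicate number as a block, GC offsets and leaving out each library.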

Additional observations from a re-analysis of the deposited data

How the results depend on the processing

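The counts of called peaks, runs and gene sums were recomputed under each alternative. FHIT run 3, the FHIT gene sum, WWOX run 2 and CDH13 run 4 kept their direction and an adjusted p under 0.05 in each fit made of them, leaving out each library included, with log2 fold changes of 0.70 to 0.76, 0.21 to 0.26, 0.39 to 0.46 and 0.24 to 0.27. The medians over their peaks were 0.72, 0.34, 0.51 and 0.33. With a library left out, the rises among peaks ranged from 14 to 23 and the falls from 3 to 8, the higher runs from 3 to 6 and the lower runs from 0 to 6, and the higher gene sums from 1 to 2 and the lower from 0 to 1. DESeq2 gave 7 lower runs and 1 lower gene sum, a loess trend on mean count 13 lower peaks and 1 lower gene sum, and library size alone 1 lower gene sum. A limit of 0.32 on the log2 fold change left 2 higher and 0 lower runs and 0 higher gene sums and gave 18 lower peaks, as did no fold limit. In gene bodies alone 1 gene sum was higher. Runs of 20 peaks gave 3 higher and 2 lower calls, and runs of 5 peaks 7 lower calls. The cause of these changes was not tested.

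The replicate numbers were not taken to pair the libraries, since the deviations of same-numbered libraries correlated at -0.09, 0.18 and 0.13. With the replicate number as a block, 10 runs were lower instead of 4, and 27 peaks were higher and 9 lower.

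Signs turned for NAALADL2 run 1, whose median over peaks was 0.054 while its sum fell, for the AUTS2 gene sum, which was 0.11 in the gene body alone, and for values near 0. The LRP1B gene sum was 0.0071 by library size, 0.021 with GC offsets and 0.021 with the replicate block too, and ranged from -0.041 to 0.036 with a library left out. That of CDH13 was 0.0059 by library size and 0.0087 with a loess trend, and ranged from -0.041 to 0.017. That of NAALADL2 was -0.0049 in the gene body alone and ranged from -0.0038 to 0.075. The promoter peak of FHIT stood at 0.0045 with a loess trend and ranged from -0.17 to 0.043, and that of LRP1B ranged from -0.031 to 0.13. The IMMP2L promoter peak stood at 0.0099 (loess trend), 0.00084 (GC offset) and 0.0011 (GC offset with the block) and ranged from -0.11 to 0.059. The WWOX promoter peak stood at 0.042, 0.0070 and 0.0074 under the same settings and ranged from -0.068 to 0.023.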

Other observations

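Chains of at least 15 neighbouring peaks that moved together were otherwise all lower in HMGB2OE cells, and their choice was made after their values were seen. The longest lay on chromosome 7, with 25 peaks near POM121L12 over 918.2 kb at a median log2 fold change of -1.04 and 22 peaks near SEC61G and VSTM2A over 680.0 kb at -1.12. A stretch of 15 peaks near SKOR2 and SMAD2 stood at -1.78. The FHIT stretch, at 0.74, had fewer peaks than the former 2 and a smaller change than any of these 3. The other lower chains of at least 15 peaks had 19 peaks near SPATA31A5 at -0.61, 17 near BSPH1, SULT2A1 and TPRX2 at -0.75 and 17 near TPTE at -1.01.

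Among the regions beside the fragile genes, the 5 tested peaks in the 1 Mb above NAALADL2 in coordinate had 250.2, 205.6 and 223.5 summed normalized counts in empty vector cells and 380.0, 314.4 and 380.5 in HMGB2OE cells, a log2 ratio of 0.66. The 13 peaks in the 1 Mb below LRP1B had 1569, 1461 and 1720 against 1863, 1624 and 2279, a ratio of 0.28 with overlapping libraries. No test was made of either.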
